A study of Danio rerio with 6 samples.

Results

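The glucuronosyl, sulfo and glutathione transferases were taken as every row of the count tables whose symbol begins with ugt, sult or gst, plus zgc:173961, a glutathione transferase of the alpha class. This gave 73 of the 14791 gene rows, 45 of them ugt, 16 sult and 12 gst. They were measured as poly(A) RNA in 6 pools of whole zebrafish of strain AB at 96 h post fertilization (hpf), each pool holding 18 to 20 animals. All animals were dechorionated by hand and kept in glass vials of 5 from 24 hpf to 96 hpf in a DMSO vehicle at 0.05% v/v. Of the pools, 3 had DMSO alone and 3 had in addition 4500 µg/L of PCB-11 (3,3'-dichlorobiphenyl), a polychlorinated biphenyl with few chlorines. Nothing in the labels ties a pool to a clutch of its own, so p-values reflect how these particular pools scatter, some of which may be technical.

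These enzymes attach a polar group to a small molecule so that it can be excreted. UDP-glucuronosyltransferases add a sugar from a UDP-sugar donor, sulfotransferases add sulfate from an activated sulfate donor, and glutathione transferases add the tripeptide glutathione or use it to reduce peroxides. Hydroxylated metabolites of PCBs can be glucuronidated or sulfated, and in vertebrates several of these genes are induced through the aryl hydrocarbon receptor, the pregnane X receptor or Nrf2, mainly in liver and intestine. Hormones, bile constituents and bilirubin are also substrates.

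Each pool had between 15705712 and 20479751 counts in genes. PCB-11 replicate 2 stood apart from the other pools: it held the lowest of the 6 levels in 28.7% of the 12960 tested genes and the highest in 30.9%. PCB-11 replicate 3 held the lowest in 20.8% and the highest in 21.2%, and each other pool no more than 13.9% of either. PCB-11 replicate 2 also had the fewest counts in genes and the largest share of counts outside them, 39.1% against 31.4% to 35.0% in the other pools, and the part of these in the results was not tested. Of the 73 transferase genes, 63 passed the filter on low counts. The 10 that did not had at most 11 counts in any pool and 0 to 46 over all pools, and are given at the end of their family.

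No transferase gene passed the test between the groups, where 0.0463% of all tested genes did (edgeR's quasi-likelihood test, adjusted p under 0.05). At an unadjusted p under 0.05 there were 10 lower members (15.9% of 63) against 6.04% of all genes, and 1 higher member (1.59%) against 5.8%. DESeq2 called 1 of the 63, sult1st6, against 0.849% of all genes, and limma-voom called 0 of the 63 and 0% of all genes. All 3 PCB-11 pools lay below all 3 DMSO pools in 12 members (19.0%), against 9.35% of all genes, and above them in 0 members, against 10% of all genes.

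Single pools moved these counts. The lower members at an unadjusted p under 0.05 numbered 6 without PCB-11 replicate 2 (background 4.69%), 20 without PCB-11 replicate 3 (background 11.6%), 6 without DMSO replicate 2 (background 2.82%) and 5 without DMSO replicate 3 (background 4.12%). The higher members numbered 4 without PCB-11 replicate 2 (background 4.4%), 2 without DMSO replicate 3 (background 3.46%) and 0 without DMSO replicate 1, DMSO replicate 2, PCB-11 replicate 1 or PCB-11 replicate 3 (backgrounds 3.99%, 2.77%, 5.81% and 11.3%). Without PCB-11 replicate 3, edgeR called 1 member, sult1st6, against 1.41% of all genes, and without PCB-11 replicate 2 it called 0, against 0.0537%. In all 15 alternatives, 4 members stayed lower at an unadjusted p under 0.05, namely ugt1a7, sult1st6, sult3st3 and gstm3. The share of all genes that did so was not counted, and the alternatives reuse the same pools, so this count has no background.

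Values below 0 were the larger share in ugt and sult, and the difference between families was not tested. Fitted log2 fold changes (PCB-11 minus DMSO) were below 0 in 31 of 38 tested ugt genes, with a median of -0.23, and in 8 of 13 tested sult genes, with a median of -0.11. They were below 0 in 5 of 12 gst genes, with a median of 0.02, and over all tested genes 49.8% were below 0, with a median of 0.0015. At an unadjusted p under 0.05 there were 5 lower ugt genes (13.2%), 3 lower sult genes (23.1%) and 2 lower gst genes (16.7%), against 6.04% of all genes. Higher genes at that p numbered 0 in ugt, 0 in sult and 1 in gst (8.33%), against 5.8% of all genes. Without PCB-11 replicate 2 the medians were -0.10 for ugt, 0.06 for sult and 0.10 for gst, so that the sult median changed sign, and without PCB-11 replicate 3 they were -0.36, -0.28 and -0.17. The summed level of the ugt rows was 471, 501 and 494 CPM (read counts scaled to a common library size) in DMSO replicates 1, 2 and 3, and 420, 317 and 475 CPM in PCB-11 replicates 1, 2 and 3. That of the sult rows was 448, 432 and 459 CPM in DMSO and 392, 312 and 446 CPM in PCB-11, and that of the gst rows was 1001, 986 and 1045 CPM in DMSO and 1037, 834 and 1173 CPM in PCB-11. PCB-11 replicate 2 had the lowest sum in each family, and the groups overlapped in all 3 families, through PCB-11 replicate 3 for ugt and sult. In whole animals, fewer cells of a type and less RNA per cell cannot be told apart.

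**Figure D1:**
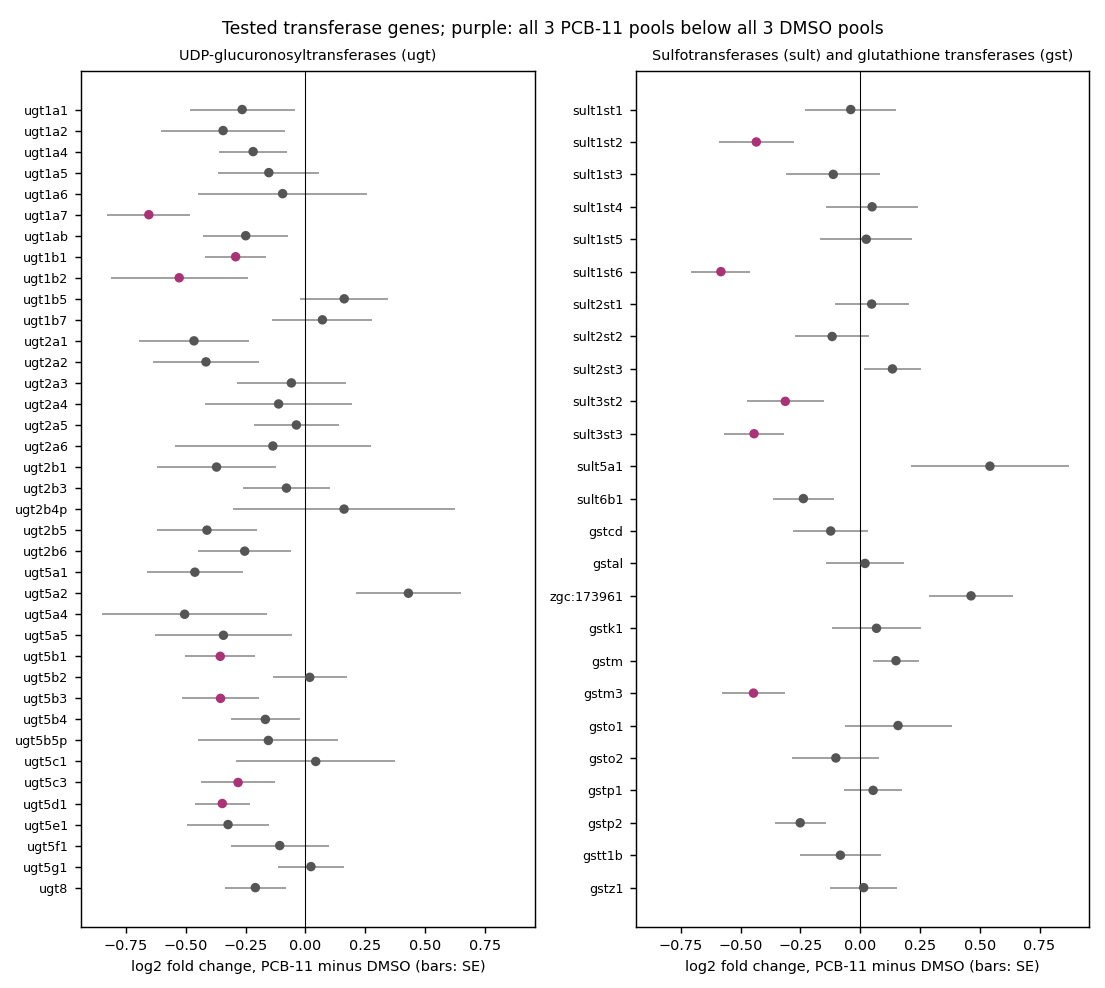
Log2 fold change of each tested transferase gene (x axis, PCB-11 minus DMSO, bars show the SE) by gene (y axis), with ugt genes on the left and sult and gst genes on the right. The 12 purple points are members whose 3 PCB-11 pools all lay below the 3 DMSO pools; ugt1a7 and sult1st6 lie farthest to the left, at -0.65 and -0.58.

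Many of these genes stand in tandem clusters, and the counts of single members carry that limit. In the RefSeq annotation of assembly GRCz12tu, used here for names and neighbours alone, 70 of the 73 symbols matched an entry, and 30 of them had spans that overlap another member, in 7 groups. These held 7 ugt1a, 7 ugt1b, 4 ugt2a, 3 ugt2b, 4 ugt5b, 3 ugt5c and 2 ugt5a rows. In vertebrate UGT1A genes, alternative first exons are spliced to shared later exons, so a read from a shared exon belongs to no single member. Ambiguous reads were 0.379% to 0.429% of a pool, and no source used here states how reads of near-identical members were shared out.

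The ugt1a genes encode enzymes that conjugate phenols and, in mammals, bilirubin. All 7 were tested and all 7 had negative log2 fold changes, with a median of -0.25. At an unadjusted p under 0.05, 1 was lower (14.3%, against 6.04% of all genes). That member was ugt1a7, with 67.5, 71.0 and 60.9 CPM in DMSO and 49.8, 29.9 and 46.8 CPM in PCB-11 (always in the order of replicates 1, 2 and 3). The groups did not overlap, and PCB-11 replicate 2 was lowest (log2 fold change -0.65 ± 0.17 SE, adjusted p = 0.308 in edgeR).

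Its neighbour ugt1a1, which carries the name of the mammalian bilirubin enzyme, had its highest level in PCB-11 replicate 3. It had 53.6, 54.2 and 58.0 CPM in DMSO and 42.9, 30.8 and 64.3 CPM in PCB-11, so that the PCB-11 pools held both the lowest and the highest level (log2 fold change -0.26 ± 0.22). The level of ugt1ab was 29.7, 28.1 and 37.3 CPM in DMSO and 25.9, 20.8 and 33.3 CPM in PCB-11 (-0.25 ± 0.18). For ugt1a4 it was 10.3, 10.8 and 12.1 CPM in DMSO and 9.45, 8.23 and 10.8 CPM in PCB-11 (-0.22 ± 0.14).

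In the other ugt1a genes the groups overlapped as they did in ugt1a1, ugt1ab and ugt1a4. The level of ugt1a2 was 3.95, 3.85 and 3.41 CPM in DMSO and 2.01, 2.70 and 4.11 CPM in PCB-11 (-0.34 ± 0.26), that of ugt1a5 was 6.30, 6.35 and 5.20 CPM in DMSO and 5.37, 3.87 and 6.74 CPM in PCB-11 (-0.15 ± 0.21) and that of ugt1a6 was 0.802, 0.990 and 1.27 CPM in DMSO and 1.29, 0.553 and 1.00 CPM in PCB-11 (-0.09 ± 0.35). PCB-11 replicate 2 held the lowest level in 6 of the 7, all but ugt1a2, whose lowest was PCB-11 replicate 1.

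The ugt1b genes form a second cluster of the same group. Of 7 rows, 4 were tested, and their values had both signs. The level of ugt1b1 was 16.3, 17.2 and 17.0 CPM in DMSO and 14.5, 11.5 and 15.2 CPM in PCB-11, without overlap (log2 fold change -0.29 ± 0.13, adjusted p = 0.421 in edgeR). That of ugt1b2 was 3.78, 3.28 and 3.41 CPM in DMSO and 3.25, 1.35 and 2.58 CPM in PCB-11, again without overlap (-0.53 ± 0.29). The groups overlapped in ugt1b5, with 6.25, 7.03 and 6.73 CPM in DMSO and 8.01, 5.53 and 8.80 CPM in PCB-11 (0.16 ± 0.18), and in ugt1b7, with 2.01, 1.88 and 1.89 CPM in DMSO and 2.07, 2.21 and 1.79 CPM in PCB-11 (0.07 ± 0.21). The rows ugt1b3, ugt1b4 and the pseudogene ugt1b6p were not tested.

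The ugt2 genes belong to the group whose mammalian members conjugate steroids and bile acids. All 6 ugt2a genes and 4 of 5 tested ugt2b rows had log2 fold changes below 0, and none reached an unadjusted p of 0.05. The lowest values were those of ugt2a1 (-0.47 ± 0.23), ugt2a2 (-0.42 ± 0.22), ugt2b5 (-0.41 ± 0.21) and ugt2b1 (-0.37 ± 0.25). The level of ugt2a1 was 6.76, 4.69 and 5.55 CPM in DMSO and 3.56, 3.32 and 5.37 CPM in PCB-11, and that of ugt2b5 was 5.56, 9.90 and 8.46 CPM in DMSO and 6.40, 5.59 and 6.01 CPM in PCB-11. In both the groups overlapped through 1 DMSO pool, replicate 2 for ugt2a1 and replicate 1 for ugt2b5. The ugt2a genes ugt2a3 and ugt2a5 had 12.7, 12.8 and 11.6 CPM in DMSO and 12.2, 7.49 and 15.8 CPM in PCB-11 (-0.06 ± 0.23) and 6.48, 6.30 and 7.49 CPM in DMSO and 6.25, 5.40 and 8.06 CPM in PCB-11 (-0.04 ± 0.18), and ugt2b6 had 4.93, 5.83 and 5.40 CPM in DMSO and 4.65, 3.44 and 5.43 CPM in PCB-11 (-0.25 ± 0.19). The other members were ugt2a6 (-0.14 ± 0.41), ugt2a4 (-0.11 ± 0.31), ugt2b3 (-0.08 ± 0.18) and the pseudogene ugt2b4p (0.16 ± 0.46), while the pseudogene ugt2b2p was not tested. PCB-11 replicate 2 held the lowest level of all 6 ugt2a genes.

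The ugt5 genes are a group described in fishes. Of 18 rows, 15 were tested, and 11 had negative log2 fold changes, with a median of -0.28 and a range of -0.50 to 0.43. The level of ugt5d1 was 24.4, 26.6 and 23.1 CPM in DMSO and 21.0, 17.2 and 20.1 CPM in PCB-11, without overlap (-0.35 ± 0.11, adjusted p = 0.355 in edgeR). That of ugt5b1 was 15.9, 16.7 and 17.4 CPM in DMSO and 13.6, 10.4 and 15.0 CPM in PCB-11 (-0.36 ± 0.15), and that of ugt5b3 was 35.0, 29.7 and 31.2 CPM in DMSO and 26.8, 18.7 and 29.4 CPM in PCB-11 (-0.35 ± 0.16). In both genes the groups stood apart, with PCB-11 replicate 3 nearest to the DMSO pools.

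The other ugt5b rows were ugt5b2, with 14.4, 18.0 and 16.7 CPM in DMSO and 16.3, 13.6 and 19.7 CPM in PCB-11 (0.02 ± 0.15), ugt5b4, with 23.9, 25.6 and 25.0 CPM in DMSO and 23.8, 17.2 and 25.3 CPM in PCB-11 (-0.17 ± 0.14), and ugt5b5p (-0.15 ± 0.29). In these 3 genes the groups overlapped. The pair ugt5a1 and ugt5a2, whose annotated spans overlap, had fitted values of opposite sign. The level of ugt5a1 was 5.44, 7.24 and 7.44 CPM in DMSO and 6.09, 4.18 and 4.32 CPM in PCB-11 (-0.46 ± 0.20), and that of ugt5a2 was 2.58, 2.24 and 3.52 CPM in DMSO and 3.93, 3.25 and 4.06 CPM in PCB-11 (0.43 ± 0.22). The groups overlapped by 1 pool in each. In the same group, ugt5a5 had 4.81, 7.60 and 6.17 CPM in DMSO and 5.11, 2.89 and 6.58 CPM in PCB-11 (-0.34 ± 0.29), and ugt5a4 had -0.50 ± 0.35.

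In ugt5c3 the groups stood apart by a narrow gap, with 13.2, 13.5 and 14.3 CPM in DMSO and 13.1, 8.78 and 11.8 CPM in PCB-11 (-0.28 ± 0.15), and its neighbour ugt5c1 had 0.630, 0.990 and 1.22 CPM in DMSO and 1.24, 0.798 and 0.895 CPM in PCB-11 (0.04 ± 0.33). The level of ugt5e1 was 6.36, 5.05 and 5.96 CPM in DMSO and 5.06, 3.93 and 4.85 CPM in PCB-11 (-0.32 ± 0.17). In ugt5f1 and ugt5g1 PCB-11 replicate 3 was the highest pool, with 7.11, 7.86 and 6.68 CPM in DMSO and 7.13, 4.67 and 8.22 CPM in PCB-11 for ugt5f1 (-0.11 ± 0.20) and 13.6, 15.6 and 13.96 CPM in DMSO and 12.7, 14.1 and 17.1 CPM in PCB-11 for ugt5g1 (0.02 ± 0.14). The rows ugt5a3, ugt5c2 and ugt5g2 were not tested.

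The last ugt gene, ugt8, is not a detoxifying enzyme: in mammals it makes the galactolipid of myelin. Its level was 43.9, 59.3 and 52.9 CPM in DMSO and 45.8, 40.5 and 48.8 CPM in PCB-11, with overlapping groups (log2 fold change -0.21 ± 0.13). The 5 myelin markers measured, of 7 listed, summed to 252.6 to 255.9 CPM in DMSO and 252.6 to 285.1 CPM in PCB-11, with none at 0, and 3 of the 5 had positive log2 fold changes.

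Among the sulfotransferases, sult1st6 had the smallest unadjusted p of all 63 members. It belongs to the SULT1 group, whose members sulfate phenols, including hormones and drugs. Its level was 63.7, 59.06 and 63.7 CPM in DMSO, from 1111, 1134 and 1251 counts, and 40.7, 35.1 and 48.6 CPM in PCB-11, from 788, 572 and 923 counts. The highest PCB-11 pool stood well under the lowest DMSO pool (log2 fold change -0.58 ± 0.12, unadjusted p = 0.0011 and adjusted p = 0.225 in edgeR). Adjusted p was 0.0142 in DESeq2 and 0.0197 in edgeR without PCB-11 replicate 3, and ranged from 0.0142 to 0.825 over the alternatives.

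The SULT1 gene sult1st2 had 31.0, 33.0 and 34.6 CPM in DMSO and 24.2, 18.8 and 29.9 CPM in PCB-11, without overlap (-0.43 ± 0.16, adjusted p = 0.383 in edgeR). In the other tested SULT1 members the groups overlapped. The level of sult1st1 was 35.5, 38.1 and 39.7 CPM in DMSO and 35.6, 26.2 and 48.3 CPM in PCB-11 (-0.04 ± 0.19), with PCB-11 pools at both ends of the range. Values for sult1st3 (-0.11 ± 0.20), sult1st4 (0.05 ± 0.19) and sult1st5 (0.03 ± 0.19) also came from overlapping groups, and sult1st7 was not tested.

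Both tested sult3 genes had all PCB-11 pools below the DMSO pools, as did 9.35% of all tested genes. The unadjusted p of sult3st2 was 0.0823 in edgeR. The level of sult3st3 was 15.5, 15.2 and 15.0 CPM in DMSO and 11.8, 9.58 and 12.1 CPM in PCB-11 (-0.44 ± 0.13, adjusted p = 0.317 in edgeR), and that of sult3st2 was 23.3, 22.0 and 21.5 CPM in DMSO and 20.6, 13.3 and 19.8 CPM in PCB-11 (-0.31 ± 0.16). For both genes the DMSO pools lay close together and PCB-11 replicate 2 was lowest. The third row, sult3st4, had 2 counts in all.

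The sult2 genes, of the group that sulfates steroids, lay near 0. Log2 fold changes were 0.13 ± 0.12 for sult2st3, 0.05 ± 0.15 for sult2st1 and -0.12 ± 0.15 for sult2st2, and the groups overlapped in each. The level of sult2st1 was 28.4, 30.7 and 27.7 CPM in DMSO and 28.9, 23.7 and 37.1 CPM in PCB-11, and that of sult2st2 was 41.8, 37.6 and 51.0 CPM in DMSO and 48.1, 34.8 and 37.2 CPM in PCB-11. PCB-11 replicate 2 was the lowest pool of all 3 genes. The level of sult6b1 was 158.6, 150.7 and 159.4 CPM in DMSO and 133.7, 110.2 and 153.7 CPM in PCB-11, where PCB-11 replicate 3 lay within the DMSO range (-0.24 ± 0.13). The largest positive value of the 63 was that of sult5a1, with 2.12, 4.01 and 4.64 CPM in DMSO and 5.32, 3.32 and 7.06 CPM in PCB-11, but the groups overlapped (0.54 ± 0.33).

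The brain sulfotransferase gene sult4a1 was listed at 0 in all 6 pools, which allows up to 0.153 to 0.184 CPM per pool (3 counts, counting error only). The 7 neuron markers listed were all detected and summed to 1963 to 2126 CPM in DMSO and 1942 to 3042 CPM in PCB-11. A row at 0 leaves it unknown whether the transcript or its annotation was missing.

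**Figure D2:**
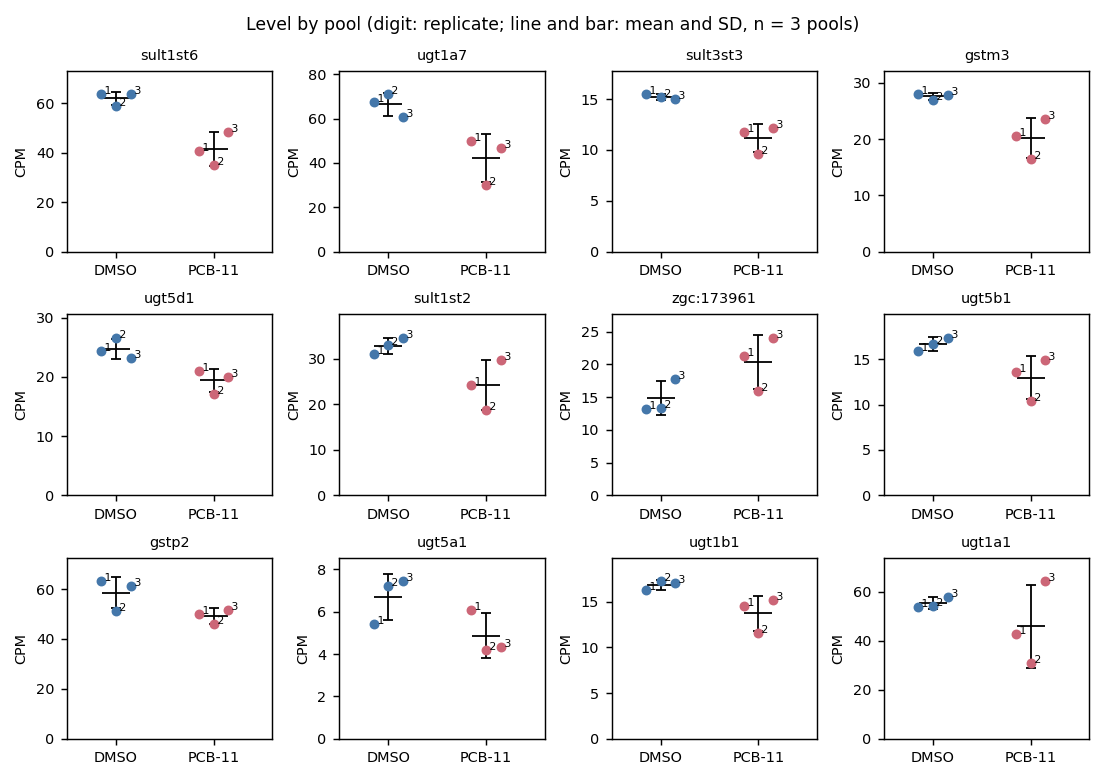
Level in CPM (y axis, from 0) by group for the 11 members with an unadjusted p under 0.05, chosen by that p, and for ugt1a1; points are pools with their replicate number, lines and bars are mean and SD over 3 pools. In sult1st6 the PCB-11 pools sit between 35.1 and 48.6 CPM, below the DMSO pools at 59.06 to 63.7 CPM, whereas in ugt1a1 the PCB-11 pools reach from 30.8 to 64.3 CPM.

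All 12 glutathione transferase rows were tested, and they held values of both signs even within a class. In the alpha class, which reduces lipid peroxides, zgc:173961 (gsta.2 in RefSeq) was the sole member with a higher value at an unadjusted p under 0.05. It had 13.2, 13.4 and 17.8 CPM in DMSO and 21.2, 15.97 and 24.1 CPM in PCB-11 (0.46 ± 0.18, adjusted p = 0.395 in edgeR), and the groups overlapped, since PCB-11 replicate 2 lay below DMSO replicate 3. Its neighbour gstal (gsta.1) had 256.8, 264.9 and 256.3 CPM in DMSO and 299.1, 192.8 and 297.0 CPM in PCB-11, above the DMSO pools in PCB-11 replicates 1 and 3 and below them in replicate 2 (0.02 ± 0.16).

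In the mu class, gstm3 (gstm.3) had 27.97, 26.9 and 27.8 CPM in DMSO and 20.6, 16.5 and 23.5 CPM in PCB-11, without overlap (-0.45 ± 0.13, adjusted p = 0.321 in edgeR). The related gstm (gstm.1) had 47.2, 44.3 and 48.9 CPM in DMSO and 48.3, 56.3 and 51.0 CPM in PCB-11 (0.15 ± 0.10). PCB-11 replicate 2, the lowest pool for gstm3, was the highest for gstm. In the pi class, gstp1 (gstp1.2), which in zebrafish is a known target of Nrf2, had 345.9, 340.9 and 356.2 CPM in DMSO and 370.3, 308.4 and 404.0 CPM in PCB-11 (0.05 ± 0.12). Its neighbour gstp2 (gstp1.1) had 63.1, 51.3 and 61.4 CPM in DMSO and 50.1, 45.8 and 51.8 CPM in PCB-11, overlapping through DMSO replicate 2 (-0.25 ± 0.11, adjusted p = 0.413 in edgeR).

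In the remaining classes the groups overlapped. In the omega class, which reduces dehydroascorbate, gsto1 had 19.8, 20.4 and 20.6 CPM in DMSO and 19.8, 15.8 and 32.1 CPM in PCB-11 (0.16 ± 0.22), and gsto2 had 111.5, 112.8 and 127.7 CPM in DMSO and 103.2, 81.8 and 142.9 CPM in PCB-11 (-0.10 ± 0.18). Both were highest in PCB-11 replicate 3 and lowest in PCB-11 replicate 2. The level of gstk1, of the kappa class found in mitochondria and peroxisomes, was 26.9, 33.8 and 36.6 CPM in DMSO and 31.2, 26.7 and 44.0 CPM in PCB-11 (0.07 ± 0.19), and that of gstz1, of the zeta class that acts in tyrosine breakdown, was 37.5, 30.3 and 33.1 CPM in DMSO and 31.9, 29.4 and 40.5 CPM in PCB-11 (0.01 ± 0.14). The theta class gene gstt1b had 40.1, 38.2 and 47.3 CPM in DMSO and 32.2, 35.9 and 50.6 CPM in PCB-11 (-0.08 ± 0.17), with its lowest level in PCB-11 replicate 1. The row gstcd, named for a glutathione transferase C-terminal domain, had 10.8, 9.22 and 11.7 CPM in DMSO and 9.45, 8.29 and 11.3 CPM in PCB-11 (-0.12 ± 0.16).

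Ratios of related members within a pool do not depend on library scaling. The log2 ratio of gstm to gstm3 was 0.75, 0.72 and 0.81 in the DMSO pools and 1.23, 1.77 and 1.12 in the PCB-11 pools, each in replicate order, a difference of 0.61 between the group means. Every PCB-11 pool stood above every DMSO pool. The same held for gstp1 to gstp2, with 2.45, 2.73 and 2.54 in DMSO and 2.89, 2.75 and 2.96 in PCB-11 (difference 0.29), for gsto1 to gsto2 (0.23), and for zgc:173961 to gstal, with -4.28, -4.31 and -3.85 in DMSO and -3.82, -3.59 and -3.62 in PCB-11 (0.46). For each of these 4 ratios the exact permutation test, two-sided, gave p = 0.1, which is the lower limit of that test with 3 pools in each group. The ratio of ugt1a1 to ugt1a7 differed by 0.36, with overlapping groups (exact permutation p = 0.2). Adjusted over the 5 pairs, exact permutation p was 0.125 for the first 4 and 0.2 for the last. In each pair the member with the higher log2 fold change stands first, so the shared sign of the differences follows from that order. The pairs were chosen with the levels known, and near-identical copies can exchange reads. How often the ratios of other gene pairs stand apart was not counted, so the count of 4 has no background.

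**Figure D3:**
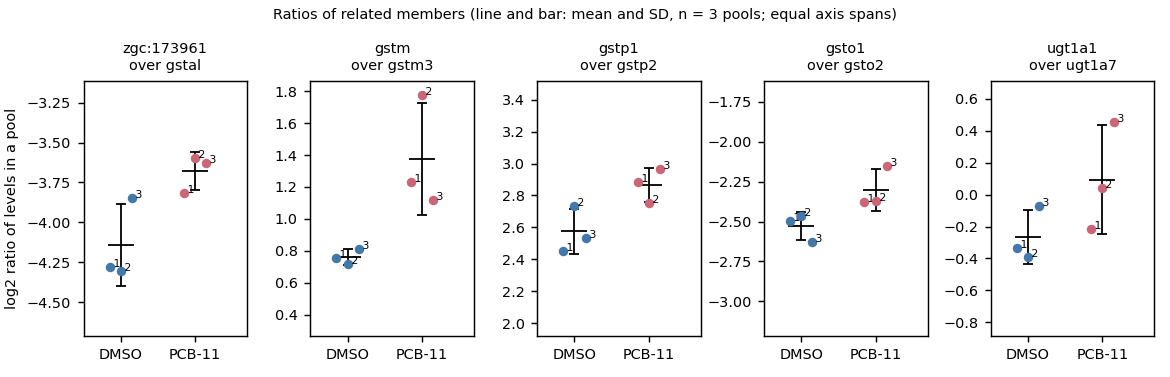
Log2 ratio of the levels of 2 related members within a pool (y axis, equal span in each panel, not from 0) by group; points are pools with their replicate number, lines and bars are mean and SD over 3 pools. In gstm over gstm3 the PCB-11 pools lie at 1.12 to 1.77, above the DMSO pools at 0.72 to 0.81, while the groups overlap in ugt1a1 over ugt1a7.

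Most transferase genes had the same order among the exposed pools. PCB-11 replicate 2 held the lowest of the 6 levels in 49 of the 63 tested members (77.8%), against 28.7% of all tested genes, and PCB-11 replicate 3 held the highest in 26 (41.3%), against 21.2%. The 3 families shared this: PCB-11 replicate 2 was lowest in 30 of 38 ugt, 10 of 13 sult and 9 of 12 gst genes. Median log2 differences of the exposed pools from the DMSO mean were, in replicate order, -0.16, -0.57 and -0.02 for ugt, -0.11, -0.50 and 0.12 for sult, and -0.06, -0.30 and 0.25 for gst. In the DMSO pools these medians stayed between -0.07 and 0.07. Those pools make up the mean they are compared with, which draws their differences toward 0.

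**Figure D4:**
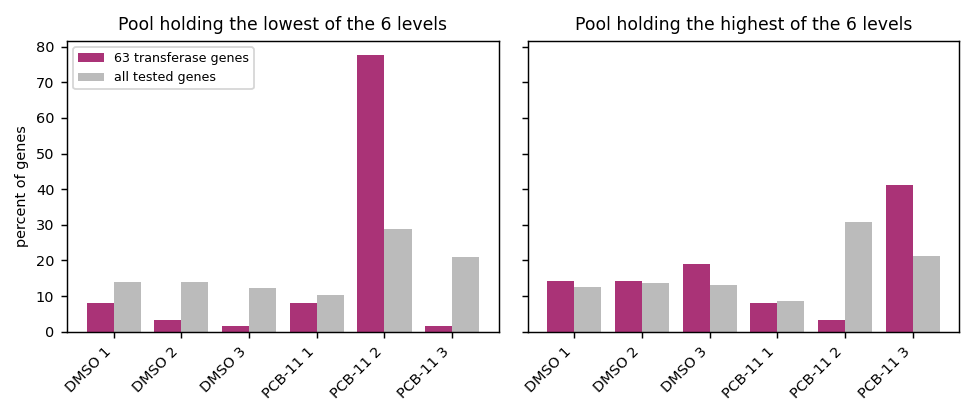
Percent of genes (y axis, from 0) whose lowest level (left) or highest level (right) of the 6 fell in each pool, for the 63 tested transferase genes and for all tested genes. PCB-11 replicate 2 holds the lowest level of 77.8% of the transferase genes and of 28.7% of all genes.

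The marker lists of enterocytes, hepatocytes and exocrine pancreas also had their lowest median and sum in PCB-11 replicate 2. That pool was the lowest for 8 of 9 enterocyte, 7 of 10 hepatocyte and all 12 exocrine pancreas markers. The 9 enterocyte marker rows measured, from 10 names listed, had medians of -0.37, -0.81 and -0.18 over the exposed pools, and 8 of the 9 had negative log2 fold changes. At an unadjusted p under 0.05 in edgeR, 5 of the 9 were lower (55.6%, against 6.04% of all genes) and 0 higher. In 5 of the 9 (55.6%, against 9.35%) all PCB-11 pools lay below the DMSO pools. At the same p, 1 of 10 hepatocyte markers was higher (10%, against 5.8% of all genes) and 0 lower, and 0 exocrine pancreas markers were either. The 9 enterocyte rows summed to 2983 to 3170 CPM in DMSO and 1949 to 3063 CPM in PCB-11. In the 10 hepatocyte markers 8 of the log2 fold changes were positive (median 0.08). All PCB-11 pools lay above the DMSO pools in 1 of the 10 (10%, against 10% of all genes) and below them in 0. That marker was fabp10a (0.46, unadjusted p = 0.0061 in edgeR, named after its values were seen). This list had pool medians of 0.07, -0.25 and 0.36 and summed to 6251 to 7633 CPM in DMSO and 5855 to 8842 CPM in PCB-11. The 12 exocrine pancreas markers, with 6 positive and 6 negative fold changes, had 0.04, -0.68 and 0.42 and summed to 6506 to 9278 CPM in DMSO and 4842 to 9866 CPM in PCB-11. No marker of these 3 lists was at 0 in any pool, and their part in the transferase values was not tested.

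The myelin list also had its lowest median in PCB-11 replicate 2, with -0.02, -0.08 and 0.14 in the exposed pools. The pronephros, neuron, lens and macrophage lists had another order of medians among the exposed pools. The 4 pronephros markers measured, of 6 listed, had medians of -0.0031, -0.03 and -0.08 in the exposed pools. The 7 neuron markers had 0.16, 0.53 and -0.14, and the 8 lens markers measured, of 9 listed, had 0.33, 0.71 and 0.36, with all 8 at positive log2 fold changes. At an unadjusted p under 0.05 in edgeR, 5 of the 8 lens markers were higher (62.5%, against 5.8% of all genes) and 0 lower. In 6 of the 8 (75%, against 10%) all PCB-11 pools lay above the DMSO pools. The macrophage list, with 6 rows measured from 9 names and 4 tested, summed to 2.64 to 19.2 CPM in DMSO and 2.58 to 20.8 CPM in PCB-11. The low sums were in 1 DMSO pool (replicate 1) and in replicates 1 and 2 of PCB-11. Much of the high sums came from mpeg1.1, which ranged from 0.05 to 11.9 CPM. The rows mfap4, csf1ra, c1qb and c1qc were low in the same pools as mpeg1.1. In contrast, c1qa had 1.09, 0.89 and 1.07 CPM in DMSO and 0.98, 1.41 and 1.26 CPM in PCB-11.

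**Figure D5:**
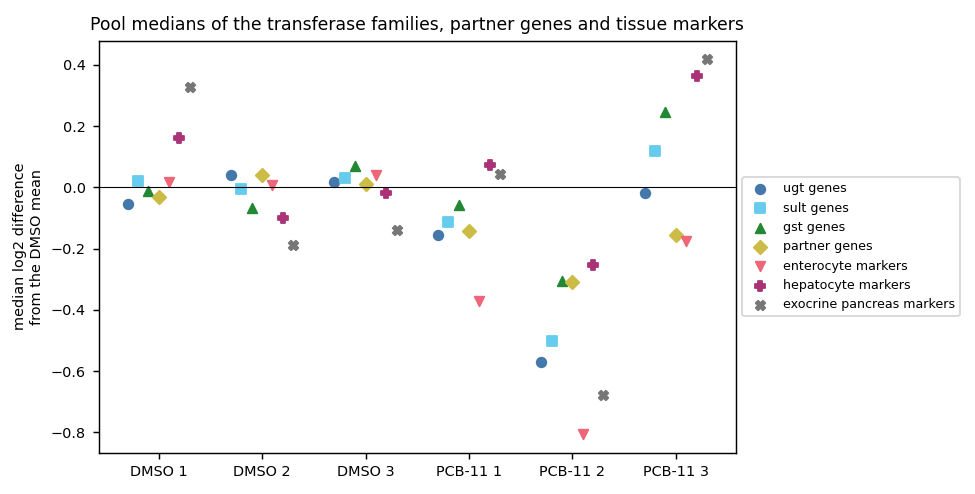
Median log2 difference from the DMSO mean (y axis) in each of the 6 pools (x axis) for the ugt, sult and gst genes, the partner genes that supply, export or regulate conjugation, and markers of enterocytes, hepatocytes and exocrine pancreas. In PCB-11 replicate 2 every series drawn lies below 0, from -0.25 for hepatocyte markers to -0.81 for enterocyte markers. Of the marker lists not drawn, neuron and lens had 0.53 and 0.71 in that pool, and pronephros, myelin and macrophage lay below 0.

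Genes that serve conjugation were drawn from a list of 42 names covering the supply of donors, the export of conjugates and regulators, of which 35 rows were measured and all 35 tested. None passed the test: edgeR, DESeq2 and limma-voom called 0 each, against 0.0463%, 0.849% and 0% of all genes. Log2 fold changes were negative in 33 of the 35, against 49.8% of all genes, with a median of -0.20. At an unadjusted p under 0.05, 10 were lower (28.6%, against 6.04% of all genes) and 0 higher, and in 17 (48.6%, against 9.35%) all PCB-11 pools lay below the DMSO pools. Without DMSO replicate 2 the count of 10 was 4, with a median of -0.13, and the share over all genes was lower too, at 2.82%.

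The partner with the smallest p was bpnt1, a phosphatase that clears the spent sulfate donor, with 34.8, 31.8 and 33.6 CPM in DMSO and 27.6, 21.3 and 25.3 CPM in PCB-11 (log2 fold change -0.43 ± 0.12, adjusted p = 0.308 in edgeR). Its Golgi relative impad1 had 22.6, 23.8 and 20.1 CPM in DMSO and 18.4, 16.3 and 17.7 CPM in PCB-11 (-0.34 ± 0.11). In both genes the groups stood apart. For UDP-sugar supply, ugdh, which makes UDP-glucuronic acid, had 120.5, 130.5 and 127.8 CPM in DMSO and 98.6, 79.4 and 115.6 CPM in PCB-11 (-0.37 ± 0.14). The UDP-glucose pyrophosphorylase gene ugp2a had 17.4, 22.7 and 16.3 CPM in DMSO and 16.1, 7.92 and 10.1 CPM in PCB-11 (-0.72 ± 0.24).

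Among the other partners, the exporter gene abcc4 had 89.0, 91.5 and 83.7 CPM in DMSO and 71.1, 63.2 and 73.7 CPM in PCB-11 (-0.34 ± 0.10), again without overlap. The retinoid X receptor gene rxraa, whose product pairs with the pregnane X receptor, had 14.5, 14.3 and 15.0 CPM in DMSO and 12.8, 10.3 and 11.2 CPM in PCB-11 (-0.36 ± 0.12). All 7 rows of sulfate donor supply, all 3 exporter rows and all 10 regulator rows had negative values, with medians of -0.21, -0.35 and -0.17. Glutathione supply and turnover had 6 of 7 negative values with a median of -0.11, and UDP-sugar supply had 6 of 7 with a median of -0.13. Of 3 deconjugating enzyme genes listed 1 was measured, the sulfatase gene arsa, at -0.24.

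The width of the intervals shows what size of difference these pools could resolve. The 95% interval of the log2 fold change lay within -1 to 1 in 57 of the 63 members (90.5%), against 90.8% of all tested genes. Its upper end was below 1 in 61 of the 63 members, and in 12443 of all 12960 tested genes. For comparison, the aryl hydrocarbon receptor target cyp1a had 42.2, 40.9 and 45.04 CPM in DMSO and 102.5, 82.2 and 129.3 CPM in PCB-11 and rose by 1.29 ± 0.15 on the log2 scale, with a 95% interval of 0.94 to 1.64 (adjusted p = 0.0378 in edgeR). For gstp1 the interval was -0.22 to 0.33, for gstal -0.35 to 0.39, for ugt1ab -0.65 to 0.15 and for zgc:173961 0.06 to 0.86. For sult1st6 it was -0.86 to -0.30 and for ugt1a7 -1.05 to -0.26. The intervals take each gene alone, without adjustment over genes.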

How the data were processed

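Each pool came with 1 deposited table of read counts by gene symbol, whole numbers that the authors obtained from the sequencing reads. The submitters' processing notes name the build danRer7 and the program Cufflinks, with no role or version; which aligner, counter, annotation and strand setting gave the counts is not stated in any source used here. Rows for reads outside genes (31.4% to 39.1% of counts) and ambiguous reads (0.379% to 0.429%) stayed out of library sizes and tests. The comparison of PCB-11 with DMSO used edgeR 4.0.16 (R 4.3.3) on all 12960 genes that passed its default expression filter: TMM scaling, robust dispersion, quasi-likelihood F test, group as the only term, Benjamini-Hochberg adjustment, called under 0.05. Levels are CPM after TMM scaling; medians by pool used log2 CPM with a prior count of 2. Standard errors came from the F statistic and 95% intervals from the fit's degrees of freedom. Exact permutation tests were run in scipy 1.17.1.

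The fit was first tested on simulated data. At an adjusted p under 0.05 it recovered 43.5% of genes simulated with a 1.5-fold change, 85.1% with a 2-fold and 100% with a 3-fold change. Of its calls there, 9.52% were false. The simulation changed 62, 67 and 68 tested genes at these folds, whereas 6 of 12960 genes were called in the real data. A larger number of true changes eases the adjusted threshold. Simulated counts were also drawn gene by gene, so no pool stood apart over many genes. These rates are therefore not the power of the test on the 63 members. The members, the lists, the rule for named genes (every called member, the 3 of smallest p per family, the 2 of highest mean CPM per subfamily, all tested ugt1 and glutathione transferase members, and the 6 partners of smallest p) and the marker lists were chosen with earlier results of these data known. The other members were named as well, so that each is accounted for. Alternatives were 3 other scalings (RLE, upper quartile, library size alone), testing without a filter, a stricter filter (at least 1 CPM in 3 pools), no robust dispersion, the replicate number as a block, DESeq2 1.42.0, limma-voom (limma 3.58.1) and leaving out each pool. Those for the partner list, for counts of pools by rank and for ratios were added after seeing the data. Lengths per transcript were not used, so no level is compared between genes in the text (CPM without length served only to pick which genes to name), and no sequences are shown.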

Additional observations from a re-analysis of the deposited data

How the results depend on the processing

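With 3 pools a group, and with PCB-11 replicates 2 and 3 at opposite ends of many members, the precision for single genes is limited, and members of tandem clusters may exchange reads. Scaling (RLE, upper quartile, library size), the filter on low counts and robust dispersion changed no call. Testing without a filter, which added low-count rows (45 ugt and 15 sult genes tested in place of 38 and 13), gave medians of -0.16 for ugt and -0.04 for sult. DESeq2 called 1 member (0.849% of all genes), and leaving out a pool gave 0 to 1 called members, 0 to 4 higher and 5 to 20 lower members at an unadjusted p under 0.05. Over the same settings the family medians ranged from -0.36 to -0.10 for ugt, from -0.28 to 0.06 for sult and from -0.17 to 0.10 for gst, the lower partner genes numbered 4 to 11 and their median ranged from -0.24 to -0.13. The shares over all genes moved with these counts. Lower genes were 4.12% of all genes without DMSO replicate 3, where 5 members were lower. They were 11.6% without PCB-11 replicate 3, where 20 members were lower. Higher genes were 2.77% to 11.3% of all genes when a pool was left out. The cause was not tested. All PCB-11 pools lay below the DMSO pools in 10 to 14 members over the 3 other scalings (8.75% to 9.50% of all genes), and PCB-11 replicate 2 was lowest in 43 to 50 (23.0% to 31.7% of all genes).

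The labels do not say whether the replicate numbers pair the pools. Deviations of same-numbered pools from their group means correlated at 0.26, -0.15 and 0.37 across genes. Those of pools with unlike numbers correlated at -0.40 to 0.23, and these values do not decide the matter. With the replicate number as a block, 0 members were called, against 0.201% of all genes. At an unadjusted p under 0.05, 13 of the 63 were lower, against 7.88% of all genes, and 1 was higher, against 5.93% of all genes. The family medians with the block were -0.25, -0.12 and -0.00033 for ugt, sult and gst. The value of gstal changed sign with the block (-0.0070) and with limma-voom (-0.012), and the gst median with limma-voom (-0.0016).

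Of the 63 tested members, 39 kept their sign when any one pool was left out, 32 of them lower and 7 higher. The matching shares over all genes were not counted, so these counts have no background. In 28 of the 39 the log2 fold change still moved by over 1.5 times in at least one such fit. For example, it lay between -0.58 and -0.046 over these fits in ugt1a1 (-0.26 with all pools) and between -0.27 and -0.018 in ugt5b4 (-0.17). In gstcd it lay between -0.25 and -0.025 (-0.12 with all pools), and in sult3st2 between -0.43 and -0.14 (-0.31). The other 24 changed sign in at least one such fit, with log2 fold changes ranging from -0.083 to 0.20 for gstal, -0.16 to 0.21 for gstk1, -0.18 to 0.36 for gsto1, -0.34 to 0.068 for gsto2, -0.032 to 0.16 for gstp1, -0.30 to 0.047 for gstt1b and -0.13 to 0.11 for gstz1. They ranged from -0.28 to 0.15 for sult1st1, -0.35 to 0.059 for sult1st3, -0.10 to 0.17 for sult1st4, -0.076 to 0.11 for sult1st5, -0.13 to 0.19 for sult2st1 and -0.27 to 0.014 for sult2st2. They ranged from -0.35 to 0.026 for ugt1a5, -0.38 to 0.16 for ugt1a6, -0.31 to 0.18 for ugt2a3, -0.36 to 0.19 for ugt2a4, -0.21 to 0.081 for ugt2a5, -0.54 to 0.24 for ugt2a6, -0.16 to 0.50 for ugt2b4p, -0.12 to 0.14 for ugt5b2, -0.17 to 0.27 for ugt5c1, -0.28 to 0.088 for ugt5f1 and -0.10 to 0.12 for ugt5g1.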
